A study of Mus musculus with 3 samples.

Results

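The transcripts of 10 genes of histone H3 lysine 9 (H3K9) methylation were measured in mouse embryonic stem cells (mESCs) under MEK inhibition. Their products write, read or erase the mark or, for Trim28, bring a writer to its sites. The genes were Setdb1, Trim28, Ehmt1, Ehmt2, Suv39h1, Suv39h2, Cbx1, Cbx3, Cbx5 and Kdm4c. They were chosen by name, and every probe whose accession belongs to one of them was taken, which gave 14 of 55681 probes and 10 of 20660 named genes on the array. All samples belonged to a single group: the J1 line of strain 129S4/SvJae, adapted to gelatin and kept in serum replacement medium with 1000 U/mL leukemia inhibitory factor (LIF), and given PD0325901 (PD), an inhibitor of the kinase MEK, at 1 µM for 24 h. Total RNA of replicates 1, 2 and 3 was hybridised to 1 single-colour Agilent array each, and the 3 arrays shared a slide and a scan. Cells without PD were not analysed here, so the values below are levels under PD and their spread, and no effect of PD was tested.

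Methylated H3K9 marks heterochromatin, the compact and mostly silent part of the genome. Setdb1 places the mark where it is brought by the corepressor Trim28 (KAP1), which itself is recruited by zinc finger proteins of the KRAB class. In mESCs this pair is known for silencing endogenous retroviruses. Ehmt1 (GLP) and Ehmt2 (G9a) act together in euchromatin, while Suv39h1 and Suv39h2 act at the repeats around centromeres. The heterochromatin protein 1 (HP1) family, encoded by Cbx5 (HP1 alpha), Cbx1 (HP1 beta) and Cbx3 (HP1 gamma), binds the methylated lysine, and Kdm4c is a demethylase that removes the mark.

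The starts of these genes are described first, because most of them share a high CpG content, which played no part in the choice of the genes. The RefSeq promoter table of GRCm38.p6 held 15 windows of 300 bases for the 10 genes, with 2 windows for each of 5 genes. A median of 28 CpG dinucleotides was found per window, against 7 over all 32851 windows of the table and 18 over the 15048 windows of genes detected on all arrays. The ratio of observed to expected CpG was above 0.6 in 13 of the 15 windows, in 35.8% of all windows and in 61.4% of the windows of detected genes. The 2 exceptions were second starts of genes that also have a CpG-rich start: Kdm4c, with 0 CpG in the upstream window and 28 in the downstream one, and Cbx5, with 29 and 8. Their bases upstream of the start are shown for this contrast, 250 bases each, 5′ to 3′ on the strand of the gene, with CpG in capitals; these stretches hold 0, 19, 22 and 7 CpG in the order printed. On the plus strand of chromosome 4 lie the upstream start of Kdm4c (chr4:74242247-74242496) and the downstream one (chr4:74251629-74251878). On the minus strand of chromosome 15 lie the upstream start of Cbx5 (chr15:103239853-103240102) and the downstream one (chr15:103215353-103215602).
Kdm4c upstream start: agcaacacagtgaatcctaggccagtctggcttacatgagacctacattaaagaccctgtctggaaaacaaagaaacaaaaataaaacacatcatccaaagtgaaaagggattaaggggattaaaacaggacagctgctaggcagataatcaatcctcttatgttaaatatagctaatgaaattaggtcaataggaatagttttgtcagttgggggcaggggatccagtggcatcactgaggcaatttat
Kdm4c downstream start: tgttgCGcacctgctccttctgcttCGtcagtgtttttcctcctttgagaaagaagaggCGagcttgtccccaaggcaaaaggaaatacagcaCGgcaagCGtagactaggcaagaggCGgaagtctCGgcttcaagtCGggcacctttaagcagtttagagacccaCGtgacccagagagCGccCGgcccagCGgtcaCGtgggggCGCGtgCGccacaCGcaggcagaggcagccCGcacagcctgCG
Cbx5 upstream start: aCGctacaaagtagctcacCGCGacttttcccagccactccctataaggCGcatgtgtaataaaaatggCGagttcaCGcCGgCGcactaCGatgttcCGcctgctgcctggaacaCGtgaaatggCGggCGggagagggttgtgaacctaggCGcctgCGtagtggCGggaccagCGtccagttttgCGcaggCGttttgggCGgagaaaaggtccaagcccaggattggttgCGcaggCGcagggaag
Cbx5 downstream start: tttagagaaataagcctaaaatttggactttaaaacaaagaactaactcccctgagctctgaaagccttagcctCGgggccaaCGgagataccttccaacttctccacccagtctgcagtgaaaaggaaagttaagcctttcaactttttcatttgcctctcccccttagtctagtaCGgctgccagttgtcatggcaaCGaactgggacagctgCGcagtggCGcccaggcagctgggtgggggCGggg

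Which of the starts was in use could not be read from the arrays, whose probes report the transcript and not its start. Short motifs were searched on both strands of the 300-base windows. The GC box GGGCGG, the core of the Sp1 site, was present in 13 of 15 windows and in at least 1 window of each of the 10 genes, against 35.7% of all windows and 57.9% of those of detected genes. GC boxes contain a CpG, so this count and the CpG count overlap. The TATA box TATAAA was in 0 of 15 windows (13.6% of all, 8.45% of detected genes), and CCAAT was in 3 (37.4% and 37.8%). The Ets motif CCGGAAG was found in the window of Setdb1 alone (8.86% and 15.1%), and GCGCGAA, an E2F-type site, in that of Cbx1 alone (1.59% and 2.66%). These are matches of letters and were not set against binding data.

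**Figure D1:**
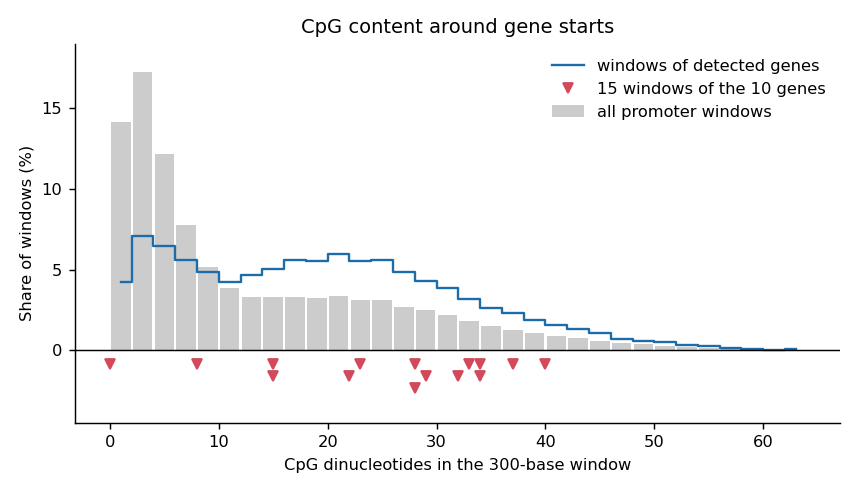
CpG dinucleotides per 300-base window around annotated gene starts (x axis) against the share of windows in percent (y axis). Bars are all 32851 windows, the line is the 15048 windows of genes detected on all arrays, and triangles below the axis are the 15 windows of the 10 genes; 13 triangles lie at 15 or more CpG, and those at 0 and 8 are the Kdm4c and Cbx5 starts printed in the text.

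Replicate 2 stood somewhat apart on the arrays as a whole. Over 33474 detected probes, the SD of the difference from replicate 2 was 0.29 log2 units for each of the other arrays, while replicates 1 and 3 differed with an SD of 0.22. The array of replicate 2 carried 187 non-uniform spots, against 25 and 8, and 6 of its 48 blocks held 10 or more of them. Of the 14 probes, those of Trim28 and Suv39h1 lay in such a block, and 0 of their spots were flagged on any array. The cell type label was checked with marker genes. All 10 markers of embryonic stem cells were detected, with summed signals of 346048 to 373668 per array. The marker Pou5f1 (Oct4) had the largest SD among them (signals 11265, 16872 and 10239, level 4.56 ± 0.42), with replicate 2 high. Nanog had the lowest mean signal of the 10 (691), near that of the neural marker Nes (667) and the fibroblast marker Thy1 (624). Of the fibroblast markers, 4 of 8 (Col1a1, Col1a2, Dcn and Thy1) were detected on all arrays, and the sum of the 8 was 1291 to 1371. Col3a1 and Twist2 were well above background on 1 array each, for Twist2 with signals of 2.09, 42.1 and 3.46, and Lum and Postn on 0. Primitive endoderm markers (6 of 6 detected) summed to 460 to 492, and neural markers (6 of 6) to 5006 to 5213. Trophoblast markers (4 of 6, not Cdx2 or Elf5) summed to 9864 to 11011. Of all named genes, 72.7% were detected. The sums rest on few probes, by mean signal Dppa5a (199506), Tubb3 (3595), Tfap2c (6527) and Gcm1 (3452). The other detected neural and trophoblast markers had mean signals from 30.4 (Map2) to 667 (Nes). Signals also depend on the probe, so the sums are not compared between lists.

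All 10 genes gave a signal well above background in PD-treated cells. All 14 probes were flagged well above background on all 3 arrays, against 72.4% of all probes matched to a gene. By their brightest probe, 72.7% of named genes were detected. Each of the 14 probes gave at least 18.7 times the lowest signal of its array that was flagged well above background, and 0 of the spots carried an outlier flag. Below, a signal is the background-subtracted spot intensity, and a level is its log2 minus the 75th percentile of the array, so that 0 stands for that percentile. Signals of different probes also depend on the probe sequences, so the genes are not ranked by level, and a gap between probes of the same gene describes the probes and not the transcript.

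**Figure D2:**
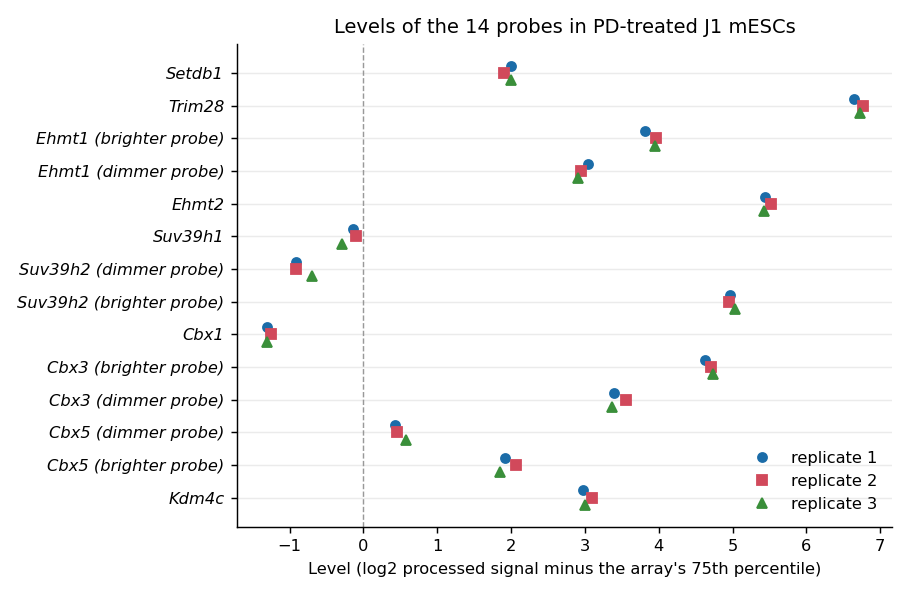
Level of each of the 14 probes (log2 processed signal minus the 75th percentile of the array, x axis) on the arrays of replicate 1 (circles), 2 (squares) and 3 (triangles). The widest range of a probe over the arrays is 0.214 log2 units (dimmer probe of Suv39h2), and the dashed line at 0 is the 75th percentile.

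Setdb1, the methyltransferase of retroviral silencing, had signals of 2202, 1921 and 2109.7 on replicates 1 to 3. Replicate 2 was the low array, and the level was 1.97 ± 0.05 (SD, n = 3 here and below). Its partner Trim28 gave signals of 55058, 55447 and 55595, the tightest set in relative terms before scaling. After scaling replicate 1 was lowest, and the level was 6.71 ± 0.06.

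The euchromatic pair was measured by 3 probes. For Ehmt1 the brighter probe gave signals of 7766, 7975 and 8121, with a level of 3.91 ± 0.08, and replicate 1 was lowest. The dimmer probe gave 4539, 3923 and 3949.7, with a level of 2.96 ± 0.07, and here replicate 1 was highest. The probes of this gene therefore placed replicate 1 at opposite ends. Before scaling both had replicate 3 above replicate 2, and after scaling both had replicate 2 slightly above replicate 3. The order of these arrays thus depended on the scaling. Ehmt2, the other enzyme of the pair, had signals of 23765, 23490.3 and 22606 and a level of 5.46 ± 0.05. Replicate 1 was highest before scaling and replicate 2 after it.

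The Suv39h genes encode the enzymes of pericentric heterochromatin. Suv39h1, on the X chromosome, had signals of 499, 476 and 431 and a level of -0.18 ± 0.10, close to the 75th percentile of the array. Replicate 3 was the low array for this gene. Suv39h2 was read by 2 probes that carry the same accession and differed widely. The brighter gave 17203, 15795 and 17190.4 with a level of 4.98 ± 0.04 (SD 0.086 with arrays centred on their medians), and the dimmer gave 293, 271 and 324 with a level of -0.84 ± 0.12. The gap between them was 5.82 ± 0.08 log2 units. The same gap was 0.95 ± 0.15 for Ehmt1, 1.25 ± 0.11 for Cbx3 and 1.46 ± 0.17 for Cbx5. After scaling both Suv39h2 probes were highest on replicate 3 and lowest on replicate 2. Before scaling the brighter probe was slightly higher on replicate 1 than on replicate 3. Why the 2 probes differ was not tested, so the level of Suv39h2 is known only per probe.

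Of the HP1 genes, Cbx1 (HP1 beta) had signals of 222, 214 and 212 and a level of -1.29 ± 0.03. The arrays differed by at most 1.04-fold after scaling, and the SD was the smallest of the 14 probes under this scaling. Cbx3 (HP1 gamma) gave 13650.3, 13352 and 14007 with its brighter probe (level 4.69 ± 0.05) and 5798, 6005 and 5415 with its dimmer one (level 3.44 ± 0.10). Replicate 3 was highest by the first and lowest by the second. Cbx5 (HP1 alpha) gave 2079.6, 2139 and 1905 with its brighter probe (level 1.95 ± 0.11) and 737, 701 and 786 with its dimmer one (level 0.48 ± 0.08). Again replicate 3 was lowest by the first and highest by the second.

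Kdm4c, the demethylase of the set, had signals of 4323, 4387 and 4215 and a level of 3.02 ± 0.07. Replicate 2 was highest, and the arrays lay within 1.09-fold of each other.

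The differences between the arrays were small throughout. The SD of a probe ran from 0.03 (Cbx1) to 0.12 log2 units (dimmer probe of Suv39h2), and the widest range, that of the latter probe, was 0.21, a 1.16-fold difference. By their brightest probe, 0 of the 10 genes ranged over more than 1 log2 unit, against 0.987% of 14999 detected named genes. At so low a share, a count of 0 among 10 genes does not set them apart. The median SD of the 10 genes, by their brightest probe, was 0.057 log2 units, against 0.074 over all detected genes. With every probe of the 10 genes counted, the gap was smaller. The median SD was then 0.069, against 0.077 over all detected probes matched to a gene. Most of the 10 genes were bright, and bright probes varied less. With all detected genes in 4 equal parts by level, 6 of the 10 genes fell in the brightest part, 2 in each of the next parts and 0 in the dimmest. Their SD was below the median of their own part in 5 of 10 cases and above it in the other 5. Suv39h1 (SD 0.10 against 0.076), Cbx5 (0.11 against 0.060), Ehmt1 (0.079 against 0.055), Kdm4c (0.067 against 0.055) and Trim28 (0.060 against 0.055) were the genes above it.

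**Figure D3:**
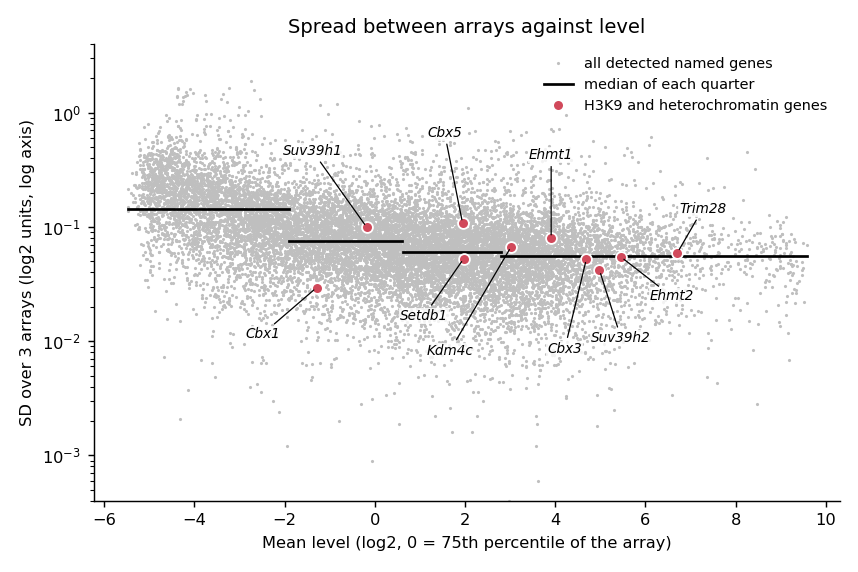
SD over the 3 arrays (y axis, log scale, log2 units) against mean level (x axis, log2) for the 14999 named genes detected on all arrays (grey) and the 10 genes of H3K9 methylation and heterochromatin (red, brightest probe). Black lines are the median SD in each of 4 equal parts by level; 5 of the 10 genes lie below and 5 above the line of their part.

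The scanner software gives an error for each spot, which was at most 10.1% of the signal for these probes. The largest difference between arrays divided by the combined error of the 2 spots was at most 1.04, for the dimmer probe of Suv39h2, and was above 1 for that probe and the brighter one of Cbx5 only. A quotient above 1.96 was found for 0 of the 14 probes, against 7.72% of 19674 detected probes of named genes. Because the error was nearly the same share of each signal, the quotient of the 14 probes restates their range. The error of a spot is the software's estimate and not a repeat measurement, as each of the 14 probes had 1 spot per array.

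The genes with 2 probes show how far the order of the arrays can be read. By level, both probes were highest on the same array in 1 of the 4 genes (Suv39h2), against 40.2% of the 3126 genes with 2 detected probes. Differences of this size between replicates were therefore not shared by the probes of Ehmt1, Cbx3 and Cbx5. Replicate 2 was highest for 8 of the 14 probes, replicate 3 for 5 and replicate 1 for 1. By the brightest probe of each gene, replicate 2 was highest in 7 of 10 genes, but in 3 of 10 when the arrays were centred on their medians. That centring moved replicate 2 by -0.05 and replicate 3 by 0.04 log2 units relative to replicate 1, as much as many of the differences.

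**Figure D4:**
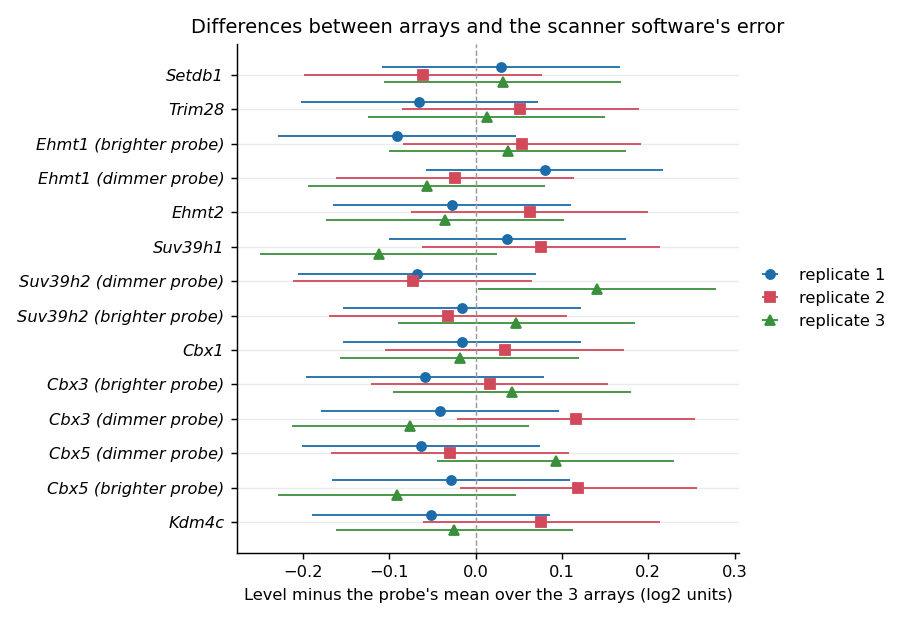
Level on each array minus the mean of the probe over the 3 arrays (x axis, log2 units) for the 14 probes, with bars of 1 software error of the spot. Symbols are replicate 1 (circles), 2 (squares) and 3 (triangles); the bars of the arrays overlap for all 14 probes, and the brighter and dimmer probes of Ehmt1, Cbx3 and Cbx5 order the arrays differently.

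The wider machinery was examined in 6 lists with 37 genes, of which 36 were on the array. By their brightest probe 34 were detected, again against 72.7% of named genes. The median SD of the 34 was 0.060 log2 units, against 0.074 over all detected genes, without a match by level. A range above 1 log2 unit was found for 0 of them, against 0.987% of detected named genes. That share is also too low for a count over 34 genes to set them apart. Of the other H3K9 methyltransferases, Prdm2 (level 0.27 ± 0.07) and Prdm16 (-4.28 ± 0.10) were detected. Counted by probe, 2 of the 5 probes of this list were, and the dimmer probe of Prdm2 was not. Mecom was undetected on all 3 arrays, with signals of 6.15, 3.02 and 9.06. Setdb2 had no matched probe.

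Of the other H3K9 demethylases, 9 of 10 were detected by their brightest probe, and 12 of their 15 probes were. Kdm4d, a relative of Kdm4c, was well above background on 2 arrays, with signals of 16.7, 14.7 and 16.4. Kdm7a had signals of 34.9, 17.9 and 30.3, with replicate 2 low. Its SD was the largest of the lists among detected genes, at a level of -4.31 ± 0.46. These signals lay near the detection limit, as the lowest signals flagged well above background were 10.1, 11.4 and 10.3 on replicates 1 to 3. The dimmer probe of Kdm7a was not detected on all arrays. The smallest SD of this list was that of Phf8 (2.30 ± 0.03). The 7 partners of Setdb1 and Trim28 were all detected. Among them, Zfp809, a KRAB zinc finger protein that binds retroviral DNA, had a level of 1.03 ± 0.01, an SD that Morc3 shared as the smallest of the list, and Chaf1a, a subunit of the histone chaperone CAF-1, of 2.85 ± 0.16.

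All 4 genes of the HUSH list (Mphosph8, Tasor, Pphln1 and the effector Morc2a), whose products act with Setdb1, were detected, with SDs from that of Morc2a (level 2.94 ± 0.03) to that of Pphln1 (1.40 ± 0.07). So were the 3 partners of Ehmt1 and Ehmt2. Wiz, a zinc finger partner of that pair, had signals of 5704, 4208 and 5682 and a level of 3.28 ± 0.21 with replicate 2 low, and Zfp644 had a level of 1.90 ± 0.02. The 9 other heterochromatin proteins were all detected, with SDs from 0.02 for Uhrf1 (level 6.12), which reads methylated H3K9 and hemimethylated DNA, to 0.12 for the remodeller Hells (level 2.99).

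**Figure D5:**
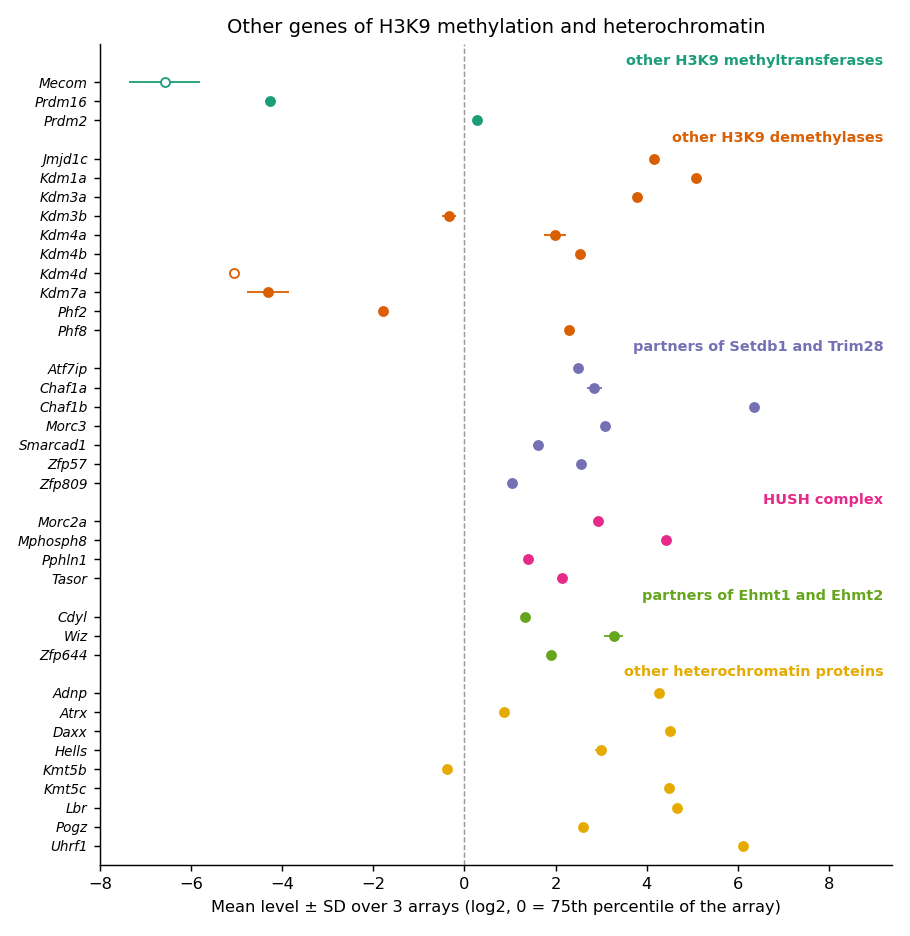
Mean level with SD over the 3 arrays (x axis, log2, 0 is the 75th percentile of the array) for the 36 genes of the 6 lists. Filled symbols are genes well above background on all arrays, and the open symbols are Mecom and Kdm4d.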

How the data were processed

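Per the labels and file headers, RNA of 3 PD-treated J1 cultures (the study's methods call them independent experiments) was labelled with Cy3 and hybridised to Agilent mouse arrays. The authors deposited spot intensities from Agilent Feature Extraction 10.7.3.1, background-subtracted and detrended within each array and not normalized between arrays, and a table of log2 values of unstated normalization. Probes were named by accession without version through the RefSeq table of GRCm38.p6. Spots without outlier flags were averaged, and levels were log2 intensities minus the 75th percentile of each array over non-control probes. A probe was called detected when 50% or more of its spots carried the software's flag for a signal well above background, and a gene was represented by its brightest probe. Spreads were computed where each array had a spot without flag, for 14999 of the 15026 detected genes. No spot was saturated. Python 3.11.15 (pandas 2.3.3) was used, with limma 3.58.1 in R 4.3.3 for normexp. The calculations were tested on simulated data. The number of arrays limits the precision. The planned moderated F test over probes with 10 spots was not run, since 0 of the 10 genes had one.

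The genes, lists and alternatives were chosen with earlier results of these data known. Named are all 10 genes and, from each of the 6 lists of the wider machinery, the genes not detected, those with a range above 0.5 log2 units and those with the largest and smallest SD. The comparison with the software error, the order of arrays by 2 probes and the promoter features were chosen after the values had been seen. Array coordinates refer to another build (mm9), so only promoter windows carry coordinates. The alternatives were centring on the median, the percentile over detected probes, quantile normalization, normexp with an offset of 50, the deposited table, flagged spots kept, the mean over probes, other rules for detection, and leaving out each replicate.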

Additional observations from a re-analysis of the deposited data

How the results depend on the processing

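All 10 genes were detected under the 5 alternative rules and arrays tried, and 0 had a range above 1 log2 unit under the 10 alternatives for levels. Leaving out an array or using a looser detection flag could not lower the number detected. The rule that every probe be detected repeats the count of probes given above. Leaving out an array could not widen a range either, so these alternatives are no check of the 2 counts. The median SD lay between 0.055 (quantile normalization) and 0.063 log2 units (array median) under the other scalings and probe rules, and between 0.044 (without replicate 2) and 0.064 (without replicate 3) when an array was left out. Without Trim28 and Suv39h1, whose probes lay in marked blocks of replicate 2, it was 0.054, an alternative added after the data had been seen. The largest SD was that of Cbx5 under 7 of the alternatives, of Setdb1 with the array median (0.095) and of Suv39h1 with averaged probes (0.099) or without replicate 2 (0.11), where that of Cbx5 was 0.045 and 0.044. The smallest SD was that of Cbx1 (0.03), but of Suv39h2 with normexp (0.017) and without replicate 3 (0.012), of Ehmt1 with averaged probes (0.013) and without replicate 1 (0.012), and of Setdb1 without replicate 2 (0.0015). The SD of Suv39h2 was 0.042 with the 75th percentile and 0.086 with the array median. Levels themselves depend on the centring. That of Cbx5 was 1.95 with the 75th percentile, 5.69 with the array median and 0.03 with the percentile over detected probes. With probes averaged the levels of the 4 genes with 2 probes moved, most for Suv39h2, from 4.98 to 2.07, and for Cbx5 to 1.21. No paired analysis was possible because the series holds a single group. Normexp started from median spot signals, since the files used here hold no mean signal. With 1 spot per array and 3 arrays, the error of single spots was not measured by repeats. Small differences between arrays can therefore not be interpreted for single genes.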
